A study of Mus musculus with 6 samples.

Results

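Potassium channel genes encode the pore-forming and accessory subunits of the channels that let potassium leave or enter a cell. They were taken as every gene symbol that begins with Kcn, continues with letters and then a digit, leaving out 2 symbols ending in os (Kcnab3os and Kcnd3os). This gave 96 of the 41253 gene symbols, of which 3 are noncoding (Kcnq1ot1, Kcnmb4os1 and Kcnmb4os2) and 93 are channel or subunit genes.

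RNA was sequenced from oesophageal squamous cell carcinomas of C57BL/6 mice, 3 labelled Ptpro-/- (Ptpro-KO) and 3 labelled wild type (WT, Ptpro+/+). Ptpro encodes a receptor-type tyrosine phosphatase, and the labels do not say which of its exons the mutant allele lacks. Mice of both genotypes received the carcinogen 4NQO in their drinking water, labelled as 100 mg/mL, from 6 weeks of age for 16 weeks. They were followed for 12 weeks more, or less where a mouse lost too much weight. The age of 34 weeks is that of the design text, while a tag on every sample gives week 6. Each library is a separate mouse by the design text, and is called here by its label and replicate number.

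Potassium channels set the resting voltage of a cell and, in secretory epithelia, keep the driving force for chloride and water secretion. Voltage-gated pore subunits (Kcna to Kcnd, Kcnh, Kcnq and others) open on depolarisation, inward rectifiers (Kcnj) hold the resting voltage, and tandem-pore channels (Kcnk) carry a background leak. Calcium- or sodium-activated channels (Kcnma, Kcnn, Kcnt) couple internal ions to voltage, and accessory subunits (Kcne, Kcnab, Kcnip, Kcnmb) alter the gating of the pores they join. A piece of oesophagus can hold squamous epithelium, gland-like epithelium, striated muscle of its wall, smooth muscle, vessels, nerves and leukocytes, and each uses a different set of these genes. Channels of epithelium and of muscle were therefore described apart.

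The libraries held 25745240 to 39827467 reads, of which 20287 to 32249 fell on the 96 members. Ptpro itself had 1094, 1824 and 1921 reads in libraries labelled Ptpro-KO, against 174, 9 and 67 reads in those labelled WT, which goes against the labels, so groups are named by label throughout. Markers of squamous epithelium were present in every library, with a summed level over 8 genes of 15253 to 22029 CPM (reads scaled to the library's total) in the libraries labelled Ptpro-KO and 43821 to 52568 CPM in those labelled WT. Markers of simple epithelium, also 8 genes, summed to 1293, 1988 and 2071 CPM (labelled Ptpro-KO) against 535, 602 and 460 CPM (labelled WT). Cdh1, a marker of this list, made up most of the sums labelled WT. It had 375, 376 and 481 CPM (labelled Ptpro-KO) against 368, 383 and 369 CPM (labelled WT), so its groups overlapped. The keratins Krt8, Krt18 and Krt19 were scarce under WT labels, with highest levels of 0.725, 4.98 and 1.74 CPM. Their lowest levels under Ptpro-KO labels were 109, 177 and 218 CPM. The sums thus understate how far these keratins differed. Library Ptpro-KO 3 stood apart by its stomach mucosa transcripts: 10 gastric markers summed to 18433 CPM there, against 32.9 and 5.40 CPM in Ptpro-KO 1 and 2 and at most 0.797 CPM in those labelled WT, where 5, 7 and 7 of the 10 had 0 reads. Library Ptpro-KO 2 held thyroid transcripts, with thyroglobulin (Tg) at 774 CPM and at most 2.60 CPM in each of the other libraries. The summed level of 12 skeletal muscle markers also varied within labels, at 13936, 5819 and 94.7 CPM in Ptpro-KO 1, 2 and 3 against 13219, 63.1 and 9422 CPM in WT 1, 2 and 3. Libraries Ptpro-KO 3 and WT 2 were thus poor in muscle. In bulk tissue such as this, fewer cells of a type and less RNA per cell cannot be told apart.

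Of the 96 members, 5 had no reads (Kcna10, Kcnk15, Kcnk18, Kcnmb3 and Kcnmb4os1), 30 had reads but too few libraries above the count filter to be tested, and 61 were tested. With edgeR's quasi-likelihood test and Benjamini-Hochberg adjustment over all 17663 tested genes, 5 of the 61 passed an adjusted p of 0.05, 2 of them higher and 3 lower in libraries labelled Ptpro-KO. Over all tested genes 4.10% passed, 1.81% higher and 2.29% lower. Kcnq1 and Kcnn4, channels of secretory epithelium, were the 2 that rose. Kcnj2, an inward rectifier of muscle, Kcnh1, a voltage-gated channel best known from brain, and Kcnk7, a tandem-pore gene, were the 3 that fell. The tested members had a median log2 fold change of 0.36, with 44 positive and 17 negative, beside a median of 0.03 over all tested genes with 9408 positive and 8255 negative. Groups did not overlap in 19 of the 61, beside 32.5% of all tested genes, and 11 of these were higher (16.8% of all) and 8 lower (15.7% of all). An unadjusted p under 0.05 in edgeR was reached by 19 of the 61, beside 25.0% of all tested genes, and the counts given for each list are read against that share. DESeq2, whose calls are named below for single genes, called 13 members but also far more of all genes than edgeR. Its share over all genes is thus well above the 4.10% of edgeR, and its calls are read against that.

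The summed level of the 93 channel and subunit genes was 428, 371 and 525 CPM in libraries labelled Ptpro-KO, against 396, 396 and 404 CPM in those labelled WT. The groups overlapped, so the total of channel transcripts was not separated by label, while single genes were.

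**Figure D1:**
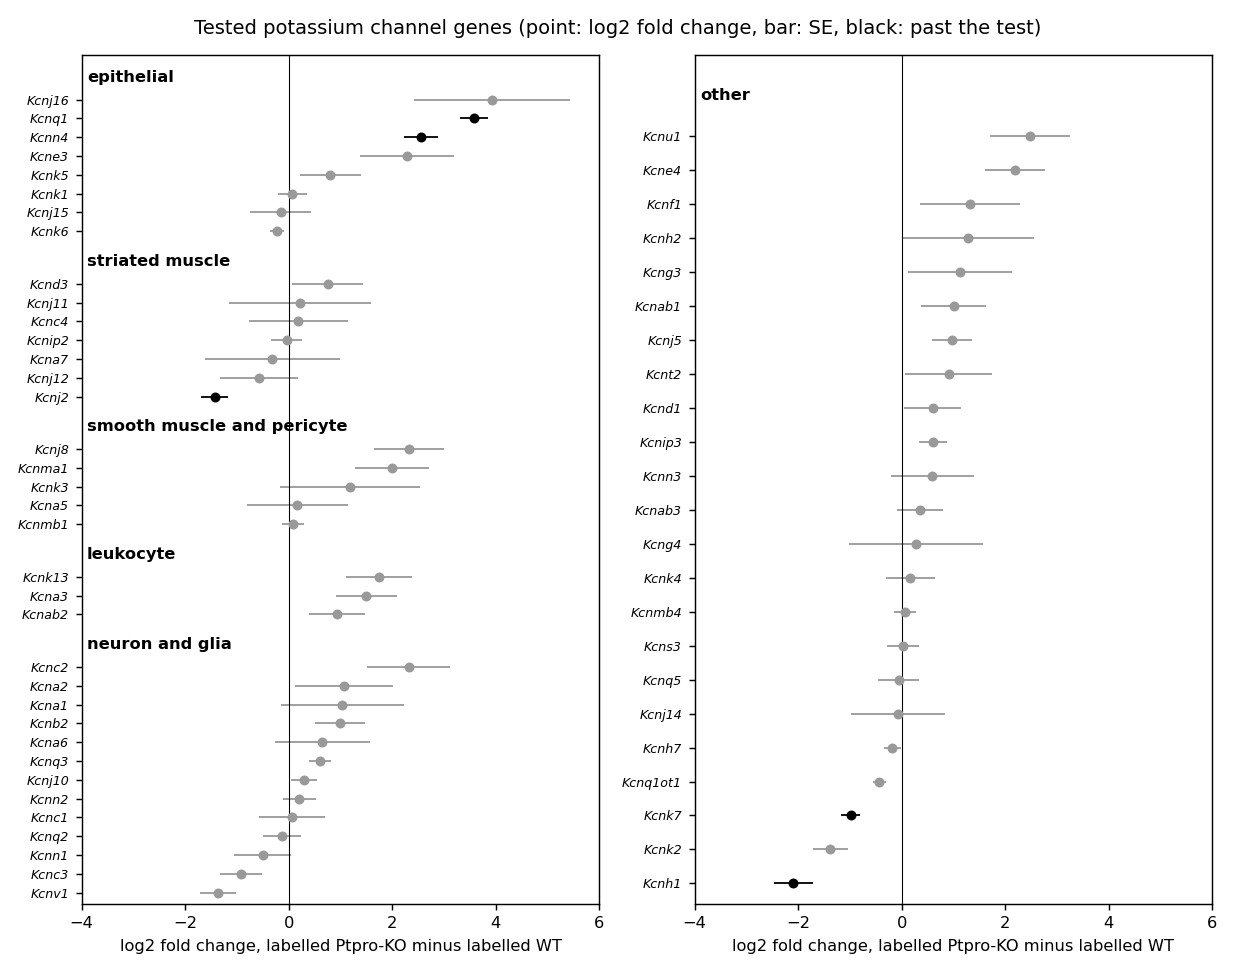
Log2 fold change (x axis, labelled Ptpro-KO minus labelled WT) of 59 of the 61 tested members, by list, with bars for the standard error and black for an adjusted p under 0.05 in edgeR. Kcnq1 at 3.58 and Kcnn4 at 2.55 have short bars, while Kcnj16 at 3.93 has a bar of 1.51 to each side.

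Upstream sequence is shown for 4 of the 5 called genes, since they carry the result, leaving out Kcnq1. Windows of 250 bases before the annotated start, from RefSeq (GRCm38.p6), matched 70 of the 96 members by symbol, among them Kcnn4, which rose, and Kcnj2, Kcnh1 and Kcnk7, which fell. Both strands were searched for the letters TGANTCA, preferred by AP-1 factors, for CACGTG, the E-box letters, for GGGCGG, preferred by Sp and KLF factors, and for the basal promoter letters TATAAA. Capitals mark the matches, and CCGCCC is GGGCGG read on the other strand.
Kcnn4 upstream window, chr7:24370013-24370262, plus strand: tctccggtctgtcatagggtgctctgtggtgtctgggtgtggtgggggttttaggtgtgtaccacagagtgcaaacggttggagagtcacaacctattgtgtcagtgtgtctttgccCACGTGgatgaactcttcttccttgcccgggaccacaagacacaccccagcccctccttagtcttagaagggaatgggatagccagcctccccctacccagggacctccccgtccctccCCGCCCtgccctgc
Kcnj2 upstream window, chr11:111065914-111066163, plus strand: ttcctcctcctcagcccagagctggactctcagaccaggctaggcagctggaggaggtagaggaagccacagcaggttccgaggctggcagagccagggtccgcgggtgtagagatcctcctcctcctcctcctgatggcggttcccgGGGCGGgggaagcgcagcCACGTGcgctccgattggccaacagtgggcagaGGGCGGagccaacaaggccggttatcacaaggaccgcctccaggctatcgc
Kcnh1 upstream window, chr1:192190527-192190776, plus strand: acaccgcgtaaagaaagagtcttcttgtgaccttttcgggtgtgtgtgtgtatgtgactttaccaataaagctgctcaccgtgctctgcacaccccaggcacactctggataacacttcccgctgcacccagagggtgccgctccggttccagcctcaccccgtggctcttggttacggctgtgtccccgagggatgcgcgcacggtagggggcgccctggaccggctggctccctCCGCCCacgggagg
Kcnk7 upstream window, chr19:5704221-5704470, plus strand: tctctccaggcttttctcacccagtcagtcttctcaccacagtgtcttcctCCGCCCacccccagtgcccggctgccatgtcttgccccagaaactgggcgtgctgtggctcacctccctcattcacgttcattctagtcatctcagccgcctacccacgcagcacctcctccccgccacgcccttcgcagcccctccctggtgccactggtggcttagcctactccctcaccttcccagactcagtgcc
CACGTG stood 133 bases before the start of Kcnn4, which rose, and 84 bases before that of Kcnj2, which fell, and these letters are held by 6.02% of the 32851 mouse windows of this length. GGGCGG stood in all 4 windows: as CCGCCC 14 bases before the start of Kcnn4, 14 before that of Kcnh1 and 199 before that of Kcnk7, and in the forward direction 102 and 51 bases before that of Kcnj2. It is held by 32.7% of all windows. TGANTCA, in 6.75% of all windows, and TATAAA, in 12.4%, had no match in the 4. The matches did not overlap one another, and each is a run of letters, not a shown site of binding. The Kcnh1 and Kcnk7 windows follow the RefSeq start and reach past the gene start that GENCODE M21 gives.

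Kcnq1 (ENSMUSG00000009545, chr7:143106362-143427042 in GRCm38, plus strand) encodes the voltage-gated pore that, with Kcne partners, carries potassium across the membranes of gland, gut and stomach epithelium. It had 29.7, 24.7 and 43.2 CPM in libraries Ptpro-KO 1, 2 and 3, against 2.87, 2.31 and 2.99 CPM in WT 1, 2 and 3. The lowest library labelled Ptpro-KO lay far above the highest labelled WT, and libraries of one label lay close together. The means were 32.5 ± 9.60 CPM in libraries labelled Ptpro-KO and 2.72 ± 0.36 CPM in those labelled WT (SD, n = 3 each). This is an 11.9-fold higher level, with a log2 fold change of 3.58, a standard error (SE) of 0.27 and an adjusted p of 0.0125 in edgeR's quasi-likelihood test. Of its reads, 98.3% were listed under 1 transcript of 3029 bases.

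Kcnq1 was called with and without the library that held stomach transcripts. Without Ptpro-KO 3 its log2 fold change was 3.32 with an edgeR adjusted p of 0.0240. Libraries Ptpro-KO 1 and 2, with 29.7 and 24.7 CPM of Kcnq1, had Atp4a, the catalytic subunit of the gastric proton-potassium pump, at 0.0554 and 0.469 CPM, against 1395 CPM in Ptpro-KO 3. The summed simple epithelium markers were higher in the same 3 libraries. Of those 8 markers 4 rose in edgeR, beside 1.81% of all tested genes. Among the 4 was Krt8, a keratin of simple epithelium, at 109, 456 and 583 CPM (labelled Ptpro-KO) against 0.725, 0.638 and 0.392 CPM (labelled WT). The part of these markers in the Kcnq1 difference was not tested. The call was lost without Ptpro-KO 2 (edgeR adjusted p = 0.0524), without WT 2 (0.0565) and without WT 3 (0.0720), 3 fits in which no gene of the whole table passed, and the log2 fold change kept to between 3.32 and 3.73 over the 6 fits that each left out 1 library. It was also lost without both muscle-poor libraries (log2 fold change 3.21, adjusted p = 0.0624).

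Kcnq1ot1, the long antisense RNA that starts inside Kcnq1 and is known for imprinting its neighbours, did not follow Kcnq1. It had 270, 334 and 325 CPM in libraries labelled Ptpro-KO, against 420, 413 and 421 CPM in those labelled WT. The groups did not overlap and the WT-labelled libraries were nearly equal. The log2 fold change was -0.43 with SE 0.12 and an edgeR adjusted p of 0.105, so it did not pass, while DESeq2 called it lower. Kcnq1ot1 (chr7:143203458-143296549, minus strand) shares 121 exon bases with Kcnq1, 2.96% of the exon bases of Kcnq1. Its whole span also lies inside that of Kcnq1, mostly opposite introns. The sources used here do not say whether strand was kept. If it was not, reads of unspliced Kcnq1 RNA could not be told from those of Kcnq1ot1.

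Kcnn4 (ENSMUSG00000054342, chr7:24370263-24386690, plus strand) encodes the intermediate-conductance calcium-activated channel of secretory epithelium, lymphocytes and red cells. It had 49.4, 27.1 and 49.7 CPM in libraries Ptpro-KO 1, 2 and 3, against 7.08, 9.25 and 5.23 CPM in WT 1, 2 and 3. The groups did not overlap, and the library with thyroid transcripts, Ptpro-KO 2, was the lowest of its label. The means were 42.1 ± 13 CPM in libraries labelled Ptpro-KO and 7.18 ± 2.01 CPM in those labelled WT (SD, n = 3 each), a 5.86-fold higher level (log2 fold change 2.55, SE 0.33, edgeR adjusted p = 0.0250). Since leukocytes also use this gene, macrophage markers are given beside it: 7 markers summed to 1051, 809 and 501 CPM in libraries labelled Ptpro-KO, against 280.8, 75.9 and 116 CPM in those labelled WT. Summed T and B cell markers were 22.4, 9.06 and 28.6 CPM (labelled Ptpro-KO) against 14.4, 7.73 and 7.58 CPM (labelled WT), which overlap. The summed simple epithelium markers, given above, were higher in every library labelled Ptpro-KO than in any labelled WT. The part of these marker lists in the Kcnn4 result was not tested. The call was kept without Ptpro-KO 3 (adjusted p = 0.0472) and lost in the 5 other fits that left out 1 library, without Ptpro-KO 1 or 2 or WT 1, 2 or 3, with adjusted p up to 0.128, as well as without both muscle-poor libraries (0.0783).

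Kcnh1 (ENSMUSG00000058248, chr1:192190774-192510159, plus strand) encodes a slowly activating voltage-gated channel of neurons that is also studied in tumours. It had 14.5, 35.2 and 17.9 CPM in libraries Ptpro-KO 1, 2 and 3, against 75.0, 116 and 96.8 CPM in WT 1, 2 and 3. All 3 libraries labelled Ptpro-KO lay below all 3 labelled WT. The level was 22.5 ± 11.1 CPM in libraries labelled Ptpro-KO and 96.1 ± 20.8 CPM in those labelled WT (SD, n = 3 each), 4.26-fold lower with a log2 fold change of -2.09, SE 0.38 and an edgeR adjusted p of 0.0438. Its reads lay on 1 transcript of 7232 bases, which took 99.5%. Summed markers of squamous epithelium were also lower in these 3 libraries, 4 of 8 falling in edgeR, such as Krt5, a keratin of basal cells, at 3904, 2820 and 2996 CPM (labelled Ptpro-KO) against 6569, 8295 and 7658 CPM (labelled WT). Neuron markers, 8 genes, summed to 26.9, 14.2 and 11.0 CPM (labelled Ptpro-KO) against 8.93, 5.22 and 7.26 CPM (labelled WT), the other direction. What part either had in the Kcnh1 result was not tested.

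Kcnj2 (ENSMUSG00000041695, chr11:111066164-111076821, plus strand) encodes the inward rectifier that holds the resting voltage of heart and skeletal muscle. It had 19.4, 11.7 and 15.3 CPM in libraries Ptpro-KO 1, 2 and 3, against 53.5, 36.8 and 34.5 CPM in WT 1, 2 and 3. The groups did not overlap. The means were 15.5 ± 3.88 CPM in libraries labelled Ptpro-KO and 41.6 ± 10.4 CPM in those labelled WT (SD, n = 3 each), 2.69-fold lower (log2 fold change -1.43, SE 0.26, edgeR adjusted p = 0.0435). Of the 2 muscle-poor libraries, Ptpro-KO 3 had 15.3 CPM of Kcnj2 and WT 2 had 36.8 CPM, each close to the rest of its label. The 8 squamous epithelium markers were also lower in libraries labelled Ptpro-KO, with a median log2 fold change of -1.27. The part of muscle or squamous epithelium in the Kcnj2 result was not tested.

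Kcnk7 (ENSMUSG00000024936, chr19:5704367-5707109, plus strand) is a tandem-pore family member whose channel function is little known. It had 3.74, 3.71 and 3.19 CPM in libraries labelled Ptpro-KO, against 6.58, 7.01 and 7.51 CPM in those labelled WT. Libraries of one label were nearly equal, and the groups lay apart. The fall was 1.98-fold (log2 fold change -0.99, SE 0.18, edgeR adjusted p = 0.0456). The part of the squamous epithelium markers, lower in the same libraries, in the Kcnk7 result was not tested. Without any 1 of the 6 libraries, labelled Ptpro-KO 1, 2 or 3 or WT 1, 2 or 3, none of Kcnh1, Kcnj2 and Kcnk7 passed, with edgeR adjusted p between 0.0524 and 0.178, and none passed without both muscle-poor libraries or in limma on log2(FPKM + 1), where adjusted p was 0.0510 to 0.0660. Without the count filter Kcnj2 (adjusted p = 0.0503) and Kcnk7 (0.0743) missed the threshold in edgeR. Kcnn4, Kcnh1, Kcnj2 and Kcnk7 share 0 exon bases with another gene in GENCODE M21.

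**Figure D2:**
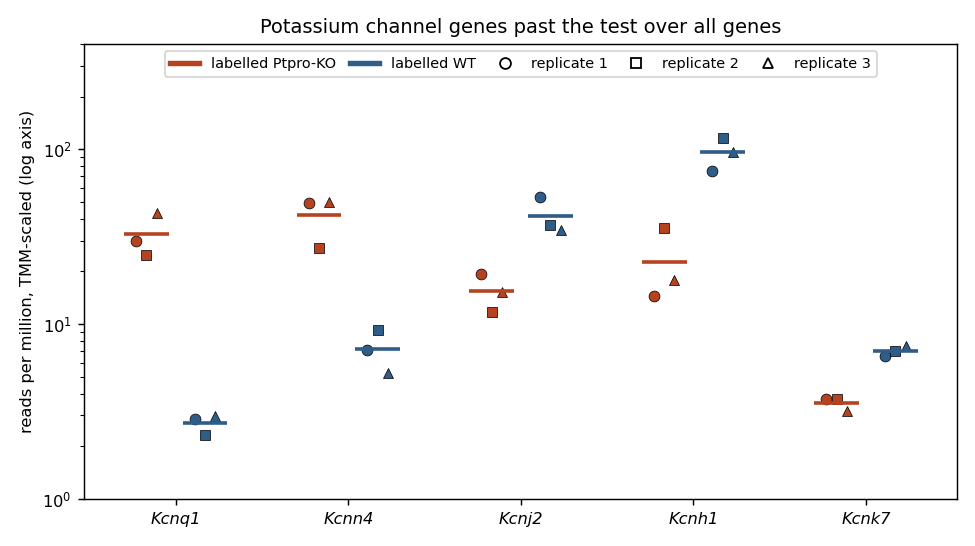
CPM (y axis, log scale) in each of the 6 libraries for the 5 genes past the test, with a bar at each group's mean. In Kcnq1 and Kcnn4 all libraries labelled Ptpro-KO lie above all labelled WT, and in Kcnj2, Kcnh1 and Kcnk7 all lie below.

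The epithelial list held 12 genes, of which 8 were tested. Kcnq1 and Kcnn4 rose and none fell, where 4.10% of all tested genes passed in edgeR. The median log2 fold change was 1.54 with 6 positive and 2 negative, beside 0.03 over all tested genes. In edgeR 4 of the 8 had an unadjusted p under 0.05, beside 25.0% of all tested genes. Besides Kcnq1 and Kcnn4, the list held genes high in 1 or 2 libraries labelled Ptpro-KO and genes whose groups overlapped or lay close together.

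Kcne2 and Kcnj16 were high in Ptpro-KO 3 alone. Kcne2 (chr16:92292389-92298129), the accessory subunit that keeps Kcnq1 open in the acid-secreting parietal cell of the stomach, had 779 reads (20.5 CPM) in Ptpro-KO 3 and 0 reads in each of the other 5 libraries. A count of 0 allows up to 3 reads there, or 0.0704 to 0.12 CPM, and the gene was not tested. Kcnj16, an inward rectifier subunit of gastric and kidney epithelium, had 1.08, 1.34 and 37.0 CPM in libraries Ptpro-KO 1, 2 and 3, against 0.928, 0.797 and 0.854 CPM in WT 1, 2 and 3. The groups were separated by a narrow gap apart from the 1 high library, and the log2 fold change of 3.93 (SE 1.51, edgeR adjusted p = 0.179) became 0.49 without Ptpro-KO 3. Kcnj16 lies just upstream of Kcnj2 on chromosome 11, at chr11:110968033-111027968.

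Kcne3, the accessory subunit that makes Kcnq1 a constantly open channel in gut crypts, had 1.30, 9.29 and 22.1 CPM in libraries labelled Ptpro-KO, against 2.09, 2.27 and 2.35 CPM in those labelled WT. It was high in Ptpro-KO 2 and 3, Ptpro-KO 1 lay below all libraries labelled WT, so the groups overlapped, and the log2 fold change of 2.28 (SE 0.91) had an edgeR adjusted p of 0.192, while DESeq2 gave 0.0416. Kcne1, the Kcnq1 partner known from heart and inner ear, had 22 reads, all in Ptpro-KO 3. Kcnj13 had 28 of its 34 reads there, and Kcnj1, the rectifier of the kidney tubule, had 10 reads in all. The deposited FPKM of Kcnj13 was 3.06, 3.50 and 4.18 (labelled Ptpro-KO) against 3.38, 4.13 and 3.83 (labelled WT). Kcnj13 shares 49.1% of its exon bases with Gigyf2, so its level is uncertain. Outside the list, and picked after its values were seen, the tandem-pore gene Kcnk10 had 0.138, 0.0938 and 8.04 CPM in Ptpro-KO 1, 2 and 3, against 0.145, 0.0399 and 0.214 CPM in WT 1, 2 and 3. Like Kcne2 it was high in Ptpro-KO 3 alone, and of the 30 members with reads that could not be tested, 15 had their highest level in that library. Of those 30, 28 had at most 100 reads in all. The share over all untested genes was not taken, so nothing is drawn from this count.

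The other 4 tested epithelial genes did not pass. Kcnk1, a tandem-pore channel of many epithelia, had 18.9, 32.0 and 29.9 CPM (labelled Ptpro-KO) against 21.2, 34.1 and 21.9 CPM (labelled WT). Kcnj15, a rectifier of kidney and stomach, had 26.0, 17.2 and 68.9 CPM (labelled Ptpro-KO) against 24.2, 59.9 and 40.9 CPM (labelled WT). The groups overlapped in both, with log2 fold changes of 0.07 (SE 0.28) and -0.16 (SE 0.58) and edgeR adjusted p of 0.909 and 0.896. Kcnk5, an acid- and volume-sensitive tandem-pore channel, had 6.86, 30.2 and 9.28 CPM (labelled Ptpro-KO) against 9.05, 10.9 and 6.62 CPM (labelled WT), with Ptpro-KO 2 far above the other 5 libraries (log2 fold change 0.80, SE 0.59, edgeR adjusted p = 0.450). Kcnk6, a tandem-pore channel relative of Kcnk1, had 23.2, 19.7 and 22.5 CPM (labelled Ptpro-KO) against 29.1, 23.6 and 24.2 CPM (labelled WT). Its groups did not overlap, though the gap was small and the log2 fold change of -0.23 (SE 0.14) did not pass (edgeR adjusted p = 0.348).

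**Figure D3:**
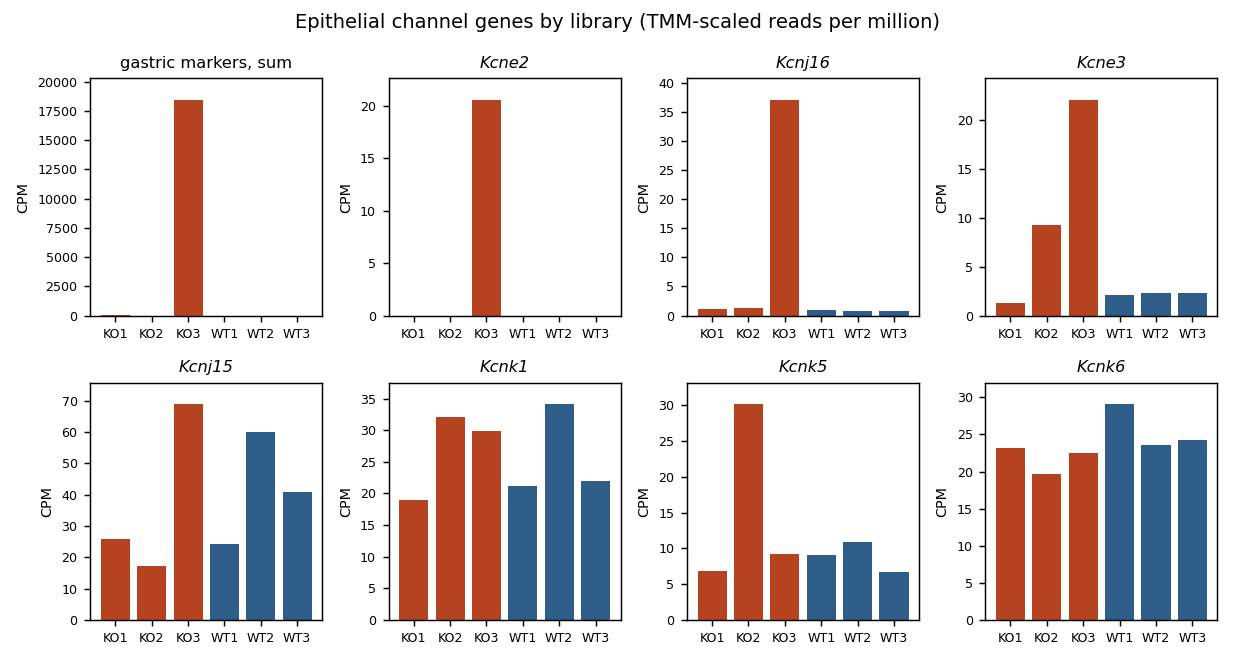
CPM (y axis, starting at 0, scaled per panel) in each library, KO and WT standing for labelled Ptpro-KO and labelled WT, for the summed gastric markers and 7 epithelial channel genes. Kcne2 at 20.5 CPM and Kcnj16 at 37.0 CPM stand out in Ptpro-KO 3, where the gastric markers sum to 18433 CPM, while Kcnk1 and Kcnk6 stay between 18.9 and 34.1 CPM in all 6 libraries.

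The striated muscle list held 7 genes, all tested. Kcnj2 fell and the other 6 did not pass, where 4.10% of all tested genes passed in edgeR. The 7 had a median log2 fold change of -0.04, 3 positive and 4 negative. In edgeR only Kcnj2 of the 7 had an unadjusted p under 0.05, beside 25.0% of all tested genes. Kcna7, a voltage-gated channel of skeletal muscle, had 7.58, 2.32 and 0.343 CPM in libraries Ptpro-KO 1, 2 and 3, against 8.96, 0.359 and 3.38 CPM in WT 1, 2 and 3. Kcnj11, the pore of the ATP-sensitive channel of muscle and pancreatic beta cells, had 4.32, 1.78 and 0.553 CPM (labelled Ptpro-KO) against 3.83, 0 and 1.82 CPM (labelled WT), the 0 being a count of 0 reads in WT 2. In both genes the muscle-poor libraries, Ptpro-KO 3 and WT 2, were the lowest of their label and the groups overlapped.

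Kcnj12, an inward rectifier close to Kcnj2, had 10.3, 2.65 and 1.84 CPM in libraries Ptpro-KO 1, 2 and 3, against 9.97, 3.27 and 8.69 CPM in WT 1, 2 and 3. Kcnc4, a fast voltage-gated channel of muscle and neurons, had 3.71, 5.30 and 0.264 CPM (labelled Ptpro-KO) against 4.32, 1.71 and 2.10 CPM (labelled WT). Here too the muscle-poor libraries were the lowest of their label and the groups overlapped. The log2 fold changes of Kcna7, Kcnj11, Kcnj12 and Kcnc4 were -0.32, 0.23, -0.57 and 0.19, with edgeR adjusted p from 0.686 to 0.940. These 4 were lowest in each label where the skeletal muscle markers were, whose summed level spanned 94.7 to 13936 CPM in the libraries labelled Ptpro-KO and 63.1 to 13219 CPM in those labelled WT, with none of the 12 at 0 reads in any library, and the markers' part in the values was not tested.

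Kcnd3, a channel of the transient outward current of heart, had 7.53, 1.13 and 5.14 CPM in libraries Ptpro-KO 1, 2 and 3, against 1.68, 3.35 and 3.17 CPM in WT 1, 2 and 3 (log2 fold change 0.75, SE 0.69, edgeR adjusted p = 0.545). Its subunit gene Kcnip2 had 0.470, 0.680 and 0.553 CPM (labelled Ptpro-KO) against 0.638, 0.438 and 0.676 CPM (labelled WT), a log2 fold change of -0.04 (SE 0.30, edgeR adjusted p = 0.949). Neither was low in both muscle-poor libraries as Kcna7 was, and the groups overlapped in both.

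**Figure D4:**
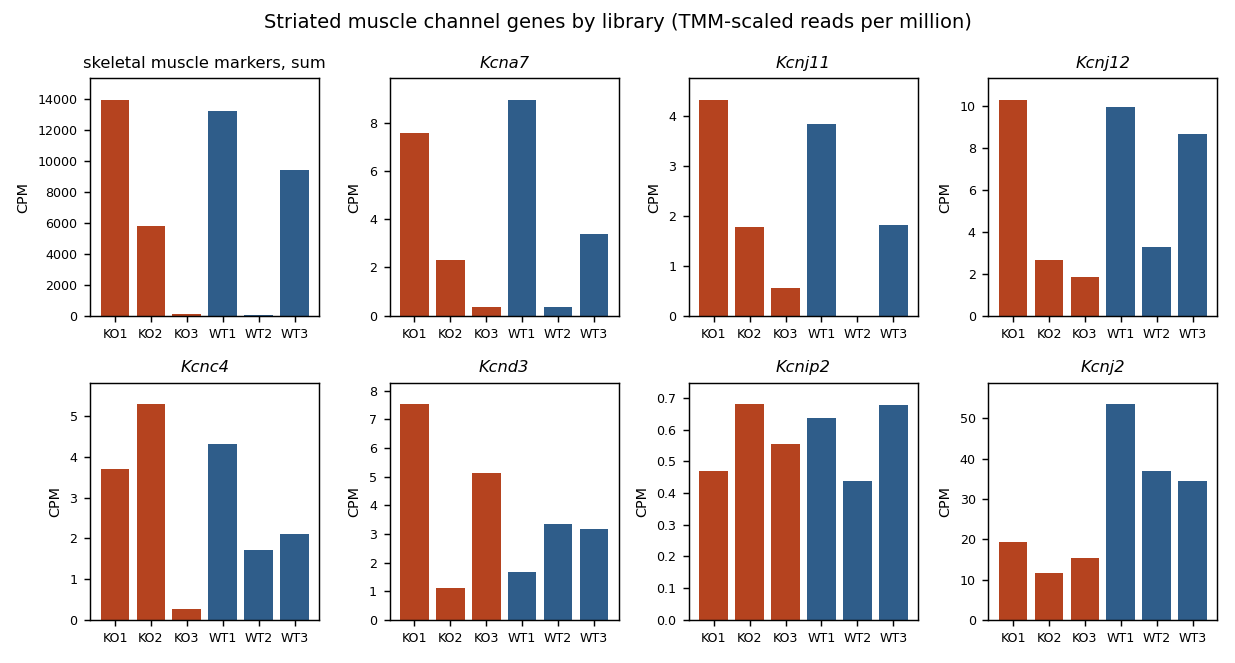
CPM (y axis, starting at 0, scaled per panel) in each library, KO and WT standing for labelled Ptpro-KO and labelled WT, for the summed skeletal muscle markers and the 7 striated muscle channel genes. Kcna7, Kcnj11, Kcnj12 and Kcnc4 are the lowest of their label in KO3 and WT2, where the markers sum to 94.7 and 63.1 CPM, while Kcnj2 is lower in all 3 libraries labelled Ptpro-KO than in any labelled WT.

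The smooth muscle and pericyte list held 7 genes, all tested, and all had a positive log2 fold change with a median of 0.78. None passed in edgeR, where 2 of the 7 had an unadjusted p under 0.05 (25.0% of all tested genes did), and none passed in limma-voom. DESeq2, which called far more of all genes than edgeR, called those 2, Kcnj8 and Kcnma1. Kcnj8, the pore of the ATP-sensitive channel of pericytes and vessel smooth muscle, had 18.8, 7.72 and 20.4 CPM in libraries Ptpro-KO 1, 2 and 3, against 4.49, 0.917 and 3.95 CPM in WT 1, 2 and 3. Kcnma1, the pore of the large-conductance calcium-activated (BK) channel, had 13, 5.75 and 12.7 CPM (labelled Ptpro-KO) against 2.41, 0.677 and 4.73 CPM (labelled WT). Groups did not overlap in either gene, with log2 fold changes of 2.32 (SE 0.67, edgeR adjusted p = 0.107) and 2.0 (SE 0.71, edgeR adjusted p = 0.156).

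Kcnmb1, the smooth muscle BK subunit, had 14.4, 10.1 and 12.1 CPM in libraries labelled Ptpro-KO, against 11.0, 9.96 and 13.6 CPM in those labelled WT. Its groups overlapped (log2 fold change 0.08, SE 0.21, edgeR adjusted p = 0.840), in contrast to the order seen for Kcnma1. The deposited FPKM of Kcnmb1 varied more, at 1.46, 0.257 and 1.35 (labelled Ptpro-KO) against 0.372, 0.293 and 0.832 (labelled WT). The groups overlapped there too, but its near-equal level between libraries depends on the deposited table used. Kcnk3 and Kcna5, also on the list, had overlapping groups and log2 fold changes of 1.18 and 0.16. Summed smooth muscle markers, 8 genes, were 3672, 1127 and 1897 CPM in libraries labelled Ptpro-KO, against 1379, 340 and 1598 CPM in those labelled WT, with WT 2 lowest as it was for Kcnj8 and Kcnma1. None of the 8 markers passed in edgeR, and their part in the channel values was not tested.

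The leukocyte list held Kcnk13, a tandem-pore channel of microglia, Kcna3, a voltage-gated channel of T cells and macrophages, and Kcnab2, a beta subunit that joins it. None passed in edgeR, DESeq2 or limma-voom, all 3 log2 fold changes were positive, and 2 had an unadjusted p under 0.05 in edgeR, beside 25.0% of all tested genes. Kcnk13 had 4.48, 3.85 and 1.71 CPM in libraries Ptpro-KO 1, 2 and 3, against 1.77, 0.399 and 0.783 CPM in WT 1, 2 and 3 (log2 fold change 1.75, SE 0.64, edgeR adjusted p = 0.161). Kcna3 had 3.82, 1.34 and 2.21 CPM (labelled Ptpro-KO) against 1.48, 0.638 and 0.463 CPM (labelled WT), a log2 fold change of 1.5 (SE 0.59, edgeR adjusted p = 0.186). In each, 1 library labelled Ptpro-KO lay just under the highest labelled WT. The macrophage markers given beside Kcnn4 were higher in all 3 libraries labelled Ptpro-KO, and summed markers of T and B cells, 8 genes, were 22.4, 9.06 and 28.6 CPM (labelled Ptpro-KO) against 14.4, 7.73 and 7.58 CPM (labelled WT).

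**Figure D5:**
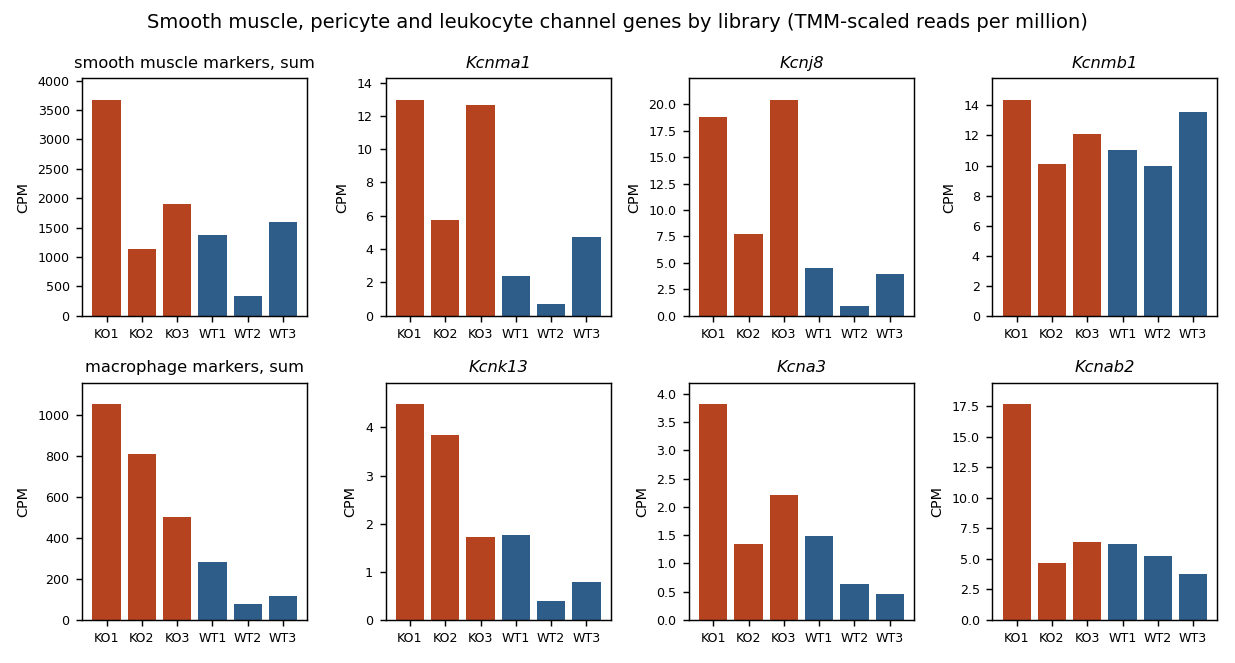
CPM (y axis, starting at 0, scaled per panel) in each library, KO and WT standing for labelled Ptpro-KO and labelled WT, for summed smooth muscle and macrophage markers and for 6 channel genes of those lists. Kcnma1 and Kcnj8 lie higher in every library labelled Ptpro-KO without passing the test, Kcnmb1 stays between 9.96 and 14.4 CPM, and Kcnk13 and Kcna3 overlap by 1 library.

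Of the 22 genes on the neuron and glia list, 13 were tested. None passed in edgeR or limma-voom, and 3 of the 13 had an unadjusted p under 0.05 in edgeR, beside 25.0% of all tested genes. DESeq2, which called far more of all genes than edgeR, called 2 of the 13, Kcnc2 and Kcnv1. The median log2 fold change was 0.29, with 9 positive and 4 negative. Kcnv1, a silent subunit that alters other voltage-gated pores, had 2.32, 1.69 and 2.58 CPM in libraries Ptpro-KO 1, 2 and 3, against 5.19, 3.91 and 7.94 CPM in WT 1, 2 and 3. The groups did not overlap, and the log2 fold change was -1.37 (SE 0.34, edgeR adjusted p = 0.0819).

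Of the 45 members on no tissue list, 23 were tested, and besides Kcnh1 and Kcnk7 none passed in edgeR. Kcne4, an accessory subunit that damps Kcnq1 and other pores, had 7.06, 10.3 and 5.53 CPM in libraries Ptpro-KO 1, 2 and 3, against 2.78, 0.598 and 1.60 CPM in WT 1, 2 and 3. Kcnk2, a mechanically gated tandem-pore channel, had 1.38, 1.08 and 1.82 CPM (labelled Ptpro-KO) against 2.52, 3.95 and 4.70 CPM (labelled WT). Groups did not overlap in either gene, Kcne4 lying higher and Kcnk2 lower in the libraries labelled Ptpro-KO. Their log2 fold changes were 2.19 (SE 0.58, edgeR adjusted p = 0.0919) and -1.38 (SE 0.34, edgeR adjusted p = 0.0809), and DESeq2 called both. Limma on log2(RPKM + 1) also called Kcne4.

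By structural class, 1 gene was called higher and 1 lower among 27 tested voltage-gated pore genes (Kcnq1 and Kcnh1). Among 7 tested genes with Kcnma, Kcnn, Kcnt or Kcnu symbols, 1 was higher (Kcnn4). Among 9 tested inward rectifiers 1 was lower (Kcnj2), as was 1 of 8 tested tandem-pore genes (Kcnk7). Of all tested genes, 1.81% were called higher and 2.29% lower in edgeR. None of 9 tested accessory subunits passed in edgeR, where 2, Kcne3 and Kcne4, had an unadjusted p under 0.05 (25.0% of all tested genes did). DESeq2, which called far more of all genes than edgeR, called those 2.

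Levels between genes were compared per transcript length, as RPKM (reads scaled to transcript length and library total), averaged over the 6 libraries. Kcnn4 was highest at 12.5 RPKM, followed by Kcnmb4 at 12.1, Kcnk1 at 11.5, Kcnj15 at 8.80, Kcnh1 at 8.12 and Kcnq1 at 6.79 RPKM. The order differed by label: Kcnn4 averaged 21.6 ± 6.39 RPKM in libraries labelled Ptpro-KO and 3.36 ± 0.997 RPKM in those labelled WT, Kcnq1 12.6 ± 3.32 RPKM (labelled Ptpro-KO) and 0.961 ± 0.275 RPKM (labelled WT), and Kcnh1 3.37 ± 1.68 RPKM (labelled Ptpro-KO) and 12.9 ± 3.2 RPKM (labelled WT; SD, n = 3 each). Kcnmb4, a BK subunit best known from neurons, had 6.89, 9.43 and 6.62 CPM in libraries labelled Ptpro-KO, against 6.55, 7.17 and 8.15 CPM in those labelled WT (log2 fold change 0.07, SE 0.21, edgeR adjusted p = 0.875). Of its reads, 73.2% were listed under a transcript of 511 bases, by which its RPKM is divided, and 31.5% of its exon bases are shared with the antisense genes Kcnmb4os1 and Kcnmb4os2, so its level is uncertain. The deposited FPKM of Kcnmb4 was lower, at 0.787, 2.57 and 1.03 (labelled Ptpro-KO) against 0.589, 1.73 and 3.61 (labelled WT). Its place after Kcnn4 thus depends on the deposited table used.

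The genes that work with these channels were taken as a list of 38, made of pumps, cotransporters, chloride channels and channel partners, of which 25 were tested. In edgeR 6 of the 25 had an unadjusted p under 0.05, beside 25.0% of all tested genes. None fell and 1 rose, where 4.10% of all tested genes passed. The 1 was Lrrc26, a gamma subunit that lets BK channels of secretory epithelium open at resting voltage, at 6.92, 23.9 and 12.7 CPM in libraries Ptpro-KO 1, 2 and 3, against 0.348, 0.399 and 0.178 CPM in WT 1, 2 and 3. The groups lay far apart (log2 fold change 5.54, SE 0.62, edgeR adjusted p = 0.0182), although the call was lost without Ptpro-KO 2, WT 1, WT 2 or WT 3.

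Slc12a7, a potassium-chloride cotransporter, had 31.2, 40.5 and 59.2 CPM in libraries labelled Ptpro-KO, against 19.5, 15.7 and 18.3 CPM in those labelled WT, and just missed the threshold (log2 fold change 1.29, SE 0.25, edgeR adjusted p = 0.0508). Slc12a2, the cotransporter that loads secretory cells with chloride, had 81.7, 208 and 275 CPM (labelled Ptpro-KO) against 90.1, 121 and 80.8 CPM (labelled WT), a log2 fold change of 0.95 (edgeR adjusted p = 0.251). Abcc9, the sulfonylurea receptor that joins the Kcnj8 pore, had 96.4, 38.8 and 60.9 CPM (labelled Ptpro-KO) against 61.1, 7.01 and 45.4 CPM (labelled WT), overlapping where Kcnj8 did not (log2 fold change 0.79, edgeR adjusted p = 0.568).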

How the data were processed

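Total RNA libraries of 6 tumours were read as deposited. The submitters' processing notes name Bowtie 0.12.2 and the mm10 build. Per sample, the authors deposited raw counts of reads on Ensembl transcripts beside gene symbol, length and RPKM, which are counts scaled to length and library total, judging from the values. A deposited table of FPKM by gene served as an alternative only, and 2 columns of the deposited tables that match no sample were not used. The sources used here do not say whether strand was kept or how shared reads were assigned.

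Counts were summed per symbol and filtered with filterByExpr (10 counts in enough libraries, 15 in total), leaving 17663 genes. After TMM scaling, edgeR 4.0.16 (R 4.3.3) gave quasi-likelihood tests, labelled Ptpro-KO minus labelled WT, with Benjamini-Hochberg adjustment over all tested genes. The SE is the log2 fold change over the root of F, CPM use filtered TMM library sizes, and RPKM of a gene are summed over its transcripts. The fit was tested on simulated data, where it called 6 of 17235 unchanged genes. It called 29 of 47 genes at a true log2 fold change of -2 and 34 of 50 at 2. At -1 it called 3 of 48 and at 1 it called 7 of 49, so most changes of that size were missed. Apart from the set changes, the simulated libraries shared the same profile and the same trend of spread. They held none of the stomach, thyroid or muscle differences between libraries described above, so these rates may not hold for these data. Positions come from GENCODE M21 and upstream windows from RefSeq. Replicates were distinct libraries (chi-square over its degrees of freedom, 66.9 to 307). Counts of 0 are read with a floor of 3 reads, for counting error only.

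Named genes were those called, those of at least 1 CPM with separate groups and a log2 fold change of at least 1 in size, the epithelial and striated muscle lists, and the 5 of highest RPKM. Kcnk10, the smooth muscle, leukocyte and partner genes named, Kcnq1ot1, Kcnc2, the markers and Ptpro were picked beside that rule, with values seen. Members and lists were chosen with earlier results of these data known. The results of some single genes are not reported here. Alternatives were DESeq2 1.42.0, limma 3.58.1 (voom, and log2 RPKM or FPKM with a pseudocount of 1 or 0.1), other scalings and filters, the most read transcript, a replicate block, an adjusted p of 0.1, leaving out each library, and, added after seeing the data, leaving out both muscle-poor libraries.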

Additional observations from a re-analysis of the deposited data

How the results depend on the processing

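The counts given here are of members higher and lower in libraries labelled Ptpro-KO (2 and 3 as reported), then of all genes (320 and 405) and of partner genes (1 and 0). DESeq2 called 7 and 6 members, the 6 including the noncoding Kcnq1ot1, and 5 and 1 partner genes. In all it called 1682 and 1478 of the same 17663 genes, far more than edgeR. At an adjusted p of 0.1 edgeR called 8 members, 5 of them lower and Kcne4 joining Kcnq1 and Kcnn4 as higher, with 1052 and 958 genes in all, and 3 and 1 partner genes. Without a filter 1 member was lower, Kcnh1. Limma on log2(RPKM + 1) called 6 members, the 5 reported and Kcne4 as higher, with 618 genes higher in all and 2 partner genes. On log2(RPKM + 0.1) it called 715 genes higher in all and 3 partner genes. Limma on log2(FPKM + 1) called 0 members lower, with 181 and 261 in all. DESeq2 size factors, upper quartile scaling and a minimum of 1 CPM gave 2 higher partner genes each. With the replicate number as a block 1 member was higher and 2 lower, Kcnn4 and Kcnk7 no longer passing (adjusted p = 0.0652 and 0.0925), with 133 and 104 genes in all. The replicate numbers mark no shared batch in the labels, and the correlation of same-numbered deviations was 0.54, 0.08 and -0.24, so the block pairs libraries that share only a number, and not every library correlated best with its own number.

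Leaving out each library in turn gave 0 to 2 members higher and 0 to 0 lower, 0 to 253 and 0 to 243 genes in all, and 0 to 1 partner genes higher. Without Ptpro-KO 2, WT 2 or WT 3 edgeR called 0 of all genes, while an unadjusted p under 0.05 was reached by 4363, 3369 and 3078 genes, of which 18, 15 and 15 were members. Without both muscle-poor libraries (2 against 2, chosen after seeing the data) all counts were 0 in edgeR, with an unadjusted p under 0.05 in 3627 genes and 16 members. The cause of these losses was not tested, beyond the fewer libraries each fit held.

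The 5 called genes kept their direction under all 19 alternatives. Uncalled genes changed sign under some: Kcnc4 was at -0.37 with the block, -0.52 in limma-voom, -0.15 on log2(RPKM + 0.1) and -0.0014 on log2(FPKM + 1), and Kcnmb4 at -0.21 on log2(FPKM + 1). Leaving out 1 library moved log2 fold changes between -0.21 and 0.066 for Kcnip2, -0.72 and 1.27 for Kcnj11, -0.95 and 0.19 for Kcnj15, -0.45 and 0.73 for Kcnc4, -0.094 and 0.32 for Kcnk1, -0.15 and 1.12 for Kcnk5, -0.12 and 0.16 for Kcnmb4, and -1.70 and 0.86 for Kcna7. Of the 30 members with reads that were not tested, 28 had at most 100 reads, while Kcne2 and Kcnk10 had 779 and 326, nearly all in 1 library.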
